A study of Saccharomyces cerevisiae W303 with 28 samples.

Results

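Whole-cell extracts, the input DNA sequenced beside each chromatin immunoprecipitate, were compared between budding yeast lacking the checkpoint protein Rad17 and yeast that have it, to ask how much DNA around an induced double-strand break was still read in each. The comparison takes every extract with both a break and nocodazole, 11 of the 14 extracts among 28 libraries, and splits them by genotype into 5 without and 6 with Rad17. The 5 extracts lacking Rad17 are 1 of Pk-tagged Scc1 rad17, 2 of HA-tagged Scc1 rad17, and 2 of HA-tagged Scc1 rad17 pds5-AID. The 6 extracts with Rad17 are 1 of Pk-tagged wild type, 2 of HA-tagged wild type, 2 of HA-tagged pds5-AID, and 1 of an untagged wild type. The immunoprecipitates, mostly of the cohesin subunit Scc1, are not analysed here.

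All 11 come from the W303 background, and all had 4 h of break induction and nocodazole, a drug that removes microtubules and holds cells in mitosis. Extracts of an HA and a Pk strain with an uncleavable break site serve as a reference. Their titles name 4 h of galactose and nocodazole. Candida glabrata was the internal standard of the experiment. "Wild type" here means only that no rad17 or pds5 allele is named, and the label rad17 does not say which lesion the allele carries. AID marks a degron allele, and since auxin is not mentioned in the labels, how far Pds5 was depleted is not known here. The strain identifiers do not say whether more than 1 clone stands behind a genotype. The labels do not tell whether replicates were separate cultures, so p-values reflect how far these libraries scatter, and that scatter may be technical.

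As background, Rad17 is a subunit of the ring-shaped 9-1-1 clamp (with Ddc1 and Mec3 in budding yeast), which is loaded at damaged DNA and helps to activate the Mec1 checkpoint kinase. After a double-strand break the 5′ ends are cut back by nucleases, a step called resection, which leaves single-stranded DNA. The library kit named in the labels joins adaptors to double-stranded DNA, so single-stranded stretches are poorly read. Extract coverage near a break can fall through the cut, through resection, or through loss during preparation, and these cannot be told apart in these files. Pds5 binds the cohesin ring, of which Scc1 is the kleisin subunit.

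Coverage is given per 1 kb window as a percent of the library's own median window, so 100% is the level of an ordinary window and sequencing depth is divided out. The median window held a coverage of 52.5 to 98.4 reads in the extracts lacking Rad17 (median library 62.7) and 55.2 to 112 reads in those with Rad17 (median library 66.2). At 1 to 5 kb from the break these depths were 7.40 to 18.4 and 6.98 to 19.5 reads, so values there are the least precise. No 2 libraries held identical values. HA wild type replicate 2 had uneven coverage, with an SD of log2 coverage beyond 100 kb of the break of 0.437 across windows, against 0.251 to 0.267 in the extracts lacking Rad17 and 0.252 to 0.264 in the other extracts with Rad17. The extracts from the HA and the Pk strain with an uncleavable site, 1 of each, were more uneven still (0.730 and 0.529). Results that rest on HA wild type replicate 2 are therefore also given without it.

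The break window is the centre of the 5 neighbouring windows on chromosome 5 with the lowest mean extract coverage relative to the uncleavable strains. It is chromosome 5, 119001 to 120000, in the coordinates of the deposited windows. Since none of the sources used here names their genome build, no gene is placed on them. In that window coverage was 9.17%, 10.8%, 13.3%, 13.9% and 19.5% of the median in the 5 extracts lacking Rad17. It was 7.34%, 11.7%, 13.5%, 14.2%, 14.6% and 16% in the 6 with Rad17. The groups overlapped fully, with a log2 difference of 0.03 ± 0.16 (SE) and an adjusted p of 0.970 in limma across all windows. Coverage climbed with distance in both groups and came near the library median by 20 to 25 kb.

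**Figure D1:**
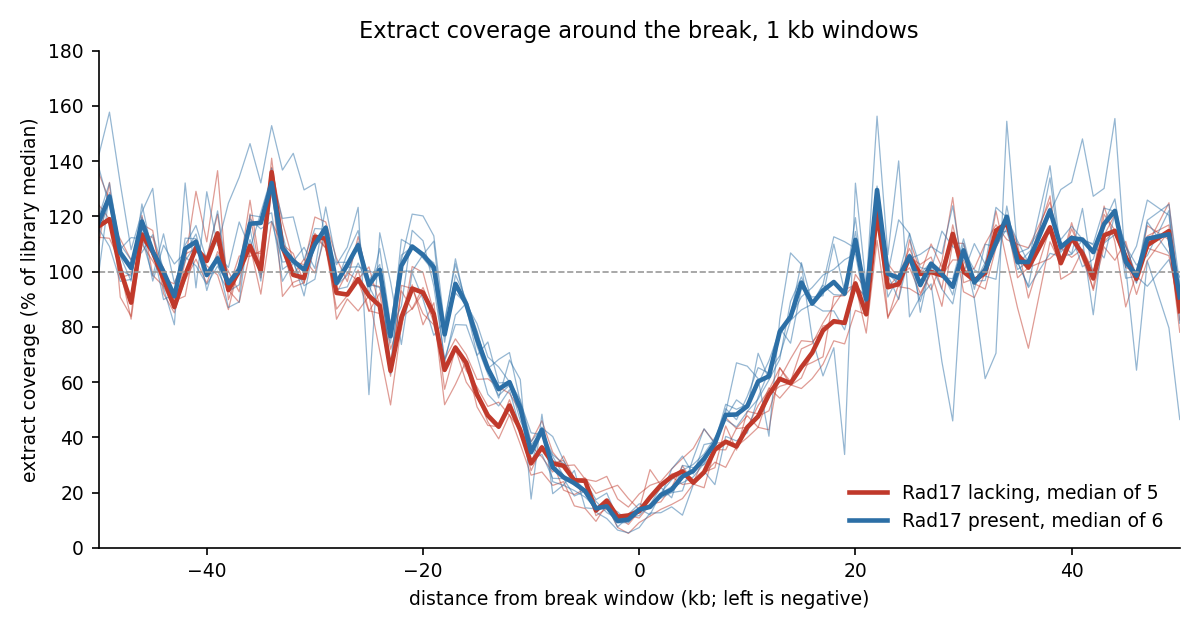
Extract coverage in 1 kb windows (vertical axis, percent of the library median) against distance from the break window (horizontal axis, kb). Thin lines are single extracts and thick lines the medians of the 5 extracts lacking Rad17 (red) and the 6 with Rad17 (blue). The single lines of both groups overlap within 10 kb. The red median lies below the blue one in every window from 9 to 29 kb on the left and from 5 to 25 kb on the right.

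Relative to the library median, extracts lacking Rad17 had lower coverage than those with it in a belt 11 to 25 kb from the break. No difference was detected within 10 kb of it. Of 16 distance classes, 8 on each side, 5 were lower without Rad17 after adjustment over the classes by the two-sided exact permutation test of 5 against 6 libraries. These were 11 to 15, 16 to 20 and 21 to 25 kb on the left, and 11 to 15 and 21 to 25 kb on the right. Elsewhere in the genome, 0 of 19 control regions passed the same test (0%). A lone region could not pass it, since the smallest exact p of 0.00433 is adjusted to 0.0823 over 19 regions. The whole chromosomes among them hold 224 to 1446 windows each, so they give no rate of false calls for classes this small. A control set of 5 high-coverage windows had a log2 difference of -0.31 with an exact p of 0.00433, and 0.0823 after adjustment over the control regions. In 3 of the 16 classes every extract lacking Rad17 lay below every extract with it, which over the whole genome was so in 5 of 2322 tiles of 5 kb (0.215%). In exact tests restricted by pds5-AID or to the HA tag, which have fewer arrangements, the 5 classes kept their sign but did not pass. Permuting within strains with and without pds5-AID gave adjusted p-values of 0.0508 to 0.0914, and the 8 HA extracts alone gave 0.152 to 0.229.

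On the right, 11 to 15 kb from the break, coverage was 53.7%, 56.2%, 56.5%, 60.4% and 61.2% of the library median in the extracts lacking Rad17. It was 71.3%, 74.0%, 75.2%, 76.0%, 78.8% and 79.3% in the extracts with Rad17. Every extract lacking Rad17 lay below every extract with it. The means were 57.6% ± 3.13 (SD, n = 5) and 75.8% ± 2.99 (SD, n = 6), a log2 difference of -0.40 ± 0.04 (SE) or a ratio of 0.760. The exact p was 0.00433, the smallest that 5 against 6 can give, and 0.0231 after adjustment. Relative to the mean of the uncleavable-strain extracts, coverage was 54.7% to 62.4% without Rad17 and 72.7% to 80.8% with it. Leaving out the Pk rad17 extract or either HA rad17 extract in turn moved the adjusted p to 0.0508, with log2 differences of -0.41, -0.39 and -0.37. Leaving out either rad17 pds5-AID extract gave 0.0381. The unadjusted exact p was 0.00952 in all 5 of these tests of 4 against 6, and it is adjusted together with the other classes.

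On the left, at 16 to 20 kb, coverage was 71.8%, 72.7%, 73.9%, 76.3% and 77.6% in the extracts lacking Rad17. It was 87.2%, 88.1%, 89.0%, 94.0%, 96.1% and 101% in those with Rad17. Again the groups did not overlap, with means of 74.5% ± 2.42 (SD, n = 5) and 92.6% ± 5.47 (SD, n = 6). The log2 difference was -0.31 ± 0.04 (SE), with an exact p of 0.00433 and 0.0231 after adjustment. The uncleavable-strain extracts themselves averaged 78.0% of the median here. Relative to them, coverage was 92.1% to 99.5% without Rad17 and 112% to 130% with it. The value of 74.5% is therefore not a measure of DNA lost. Without the Pk rad17 extract or either HA rad17 extract, the adjusted p by the exact test was 0.0508 at -0.32, -0.31 and -0.30.

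At 11 to 15 kb on the left the means were 49.6% ± 4.62 (SD, n = 5) without Rad17 and 62.5% ± 4.46 (SD, n = 6) with it. Here 4 of 5 extracts lacking Rad17 lay below every extract with Rad17, and HA rad17 pds5-AID replicate 1 (57.1%) lay above the lowest of them, HA pds5-AID replicate 2 (55.3%). The log2 difference of -0.34 ± 0.07 (SE) had an adjusted p of 0.0346 by the exact test. It stayed between -0.39 and -0.30 when any 1 extract was left out, but passed in 2 of the 11 such tests, those without HA rad17 pds5-AID replicate 1 or HA pds5-AID replicate 2, with adjusted p-values of up to 0.0762 in the rest.

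Beyond 20 kb the gap narrowed. At 21 to 25 kb on the left the extracts lacking Rad17 ran from 78.0% to 86.6% with a median of 85.1%, and those with Rad17 from 87.8% to 99.1% with a median of 94.8%. The groups did not overlap, and the log2 difference was -0.17 ± 0.04 (SE, exact test, adjusted p = 0.0231, and 0.0508 without the Pk rad17 or either HA rad17 extract, at -0.18, -0.17 and -0.17). Here too the uncleavable-strain extracts were below the median, at 85.4%. Relative to them, coverage was 91.4% to 101% without Rad17 and 103% to 116% with it. At 21 to 25 kb on the right the means were 99.6% ± 3.04 (SD, n = 5) and 106% ± 5.53 (SD, n = 6). That log2 difference, -0.09 ± 0.04 (SE, exact test, adjusted p = 0.0416), is the smallest of the 5 and passed without HA rad17 pds5-AID replicate 2 or HA pds5-AID replicate 2 but in none of the other 9 tests with 1 extract left out. It was -0.07, with an adjusted p of 0.0635, without HA wild type replicate 2, the highest library at 116%.

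At 16 to 20 kb on the right the groups were 81.4% ± 5.20 (SD, n = 5) and 93.9% ± 10.8 (SD, n = 6). The log2 difference of -0.20 ± 0.09 (SE) did not pass by the exact test (adjusted p = 0.127). The extract with the lowest coverage among those with Rad17 was HA wild type replicate 2 at 75.3%, and without it the difference was -0.26 with an adjusted p of 0.0317. The other classes from 26 kb outward had log2 differences of -0.08 to 0.05, none past the threshold.

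**Figure D2:**
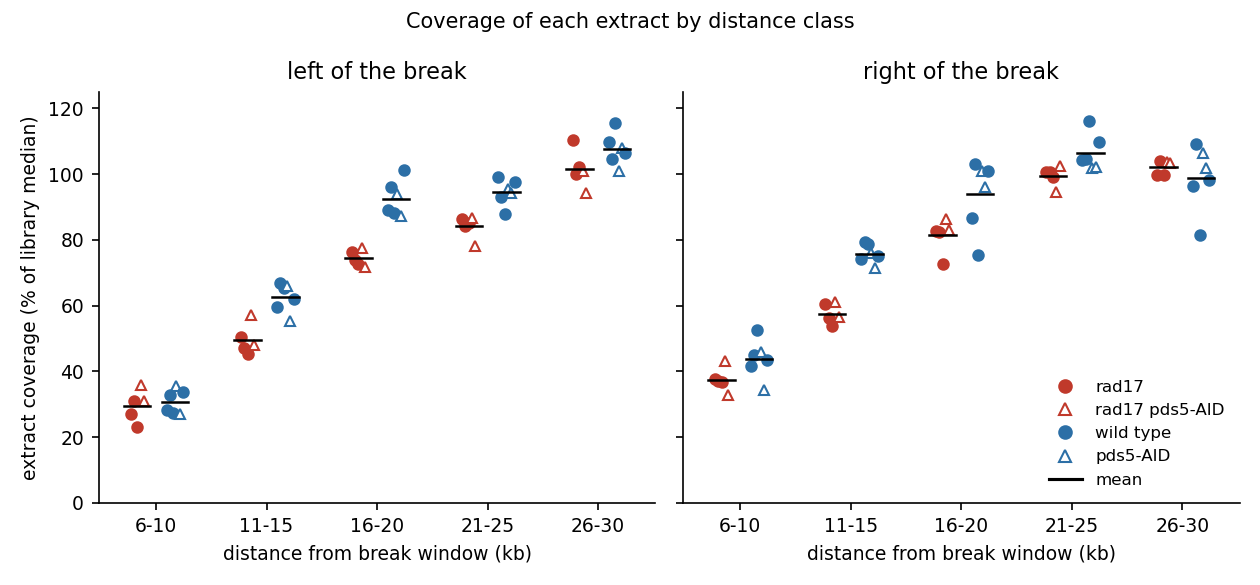
Coverage of each extract (vertical axis, percent of the library median) in classes of 5 windows from 6 to 30 kb (horizontal axis), left and right of the break. Red symbols lack Rad17, blue symbols have it, triangles carry pds5-AID and bars are means. The red and blue points separate at 16-20 and 21-25 kb on the left and at 11-15 kb on the right.

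Close to the break no class was called in either direction. At 1 to 5 kb on the left the extracts lacking Rad17 averaged 16.4% ± 4.86 (SD, n = 5) and those with Rad17 13.8% ± 1.94 (SD, n = 6), a log2 difference of 0.20 ± 0.20 (SE, exact test, adjusted p = 0.533). On the right the averages were 23.1% ± 4.68 (SD, n = 5) and 21.3% ± 3.39 (SD, n = 6), a log2 difference of 0.11 ± 0.17 (SE, exact test, adjusted p = 0.632). At 6 to 10 kb they were 29.6% ± 4.75 and 30.8% ± 3.74 on the left (SD, log2 difference -0.06 ± 0.12, SE), and 37.4% ± 3.67 and 43.8% ± 5.96 on the right (SD, -0.22 ± 0.11, SE). Neither passed by the exact test, with adjusted p-values of 0.632 and 0.169. Without HA pds5-AID replicate 2, the lowest extract with Rad17 at 34.3%, the right class at 6 to 10 kb reached -0.29 with an adjusted p of 0.0423. The standard errors of these 4 classes were 0.11 to 0.20, against 0.04 to 0.09 in the classes from 11 to 20 kb, so a difference of the size seen farther out may not have been detectable here.

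Within sets of libraries that share a tag and a replicate number, the called classes were also lower without Rad17. These sets divide the same libraries, and the replicate numbers are only shared numbers, so this is not further support. At 11 to 15 kb on the right the log2 difference was -0.40 within HA replicates 1, -0.44 within HA replicates 2 and -0.29 for the single Pk pair. At 16 to 20 kb on the left it was -0.33, -0.28 and -0.22, at 11 to 15 kb on the left -0.36, -0.36 and -0.24, and at 21 to 25 kb on the left -0.14, -0.16 and -0.20. The differences at 21 to 25 kb on the right were small in each set (-0.08, -0.11 and -0.05).

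The extract of Pk-tagged wild type with a break but no nocodazole had 79.1% at 11 to 15 kb on the right and 90.7% at 16 to 20 kb on the left. Those values lie within the range of the nocodazole-treated extracts with Rad17. At 11 to 15 kb on the left it had 68.2%, above all 6 of them, and at 21 to 25 kb on the left 98%, within their range. At 21 to 25 kb on the right it had 98.2%, below all 6 and within the range of the extracts lacking Rad17. At 1 to 5 kb it had 21.2% on the left and 31.3% on the right, above all 6 of them. With 1 such library there is no test.

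Window by window, the largest fall on the right lay 15 kb from the break, at chromosome 5, 134001 to 135000. Coverage there was 57.7%, 61.5%, 65.4%, 72.0% and 75.0% in the extracts lacking Rad17 and 86.2%, 90.9%, 94.1%, 98.1%, 103% and 103% in those with it. The log2 difference was -0.50 ± 0.08 (SE, limma adjusted p = 0.0372 over 11453 windows). It was 1 of 2 windows called lower in the whole genome (0.0175%), and the only one within 30 kb of the break. The call is fragile, since leaving out any 1 extract other than Pk rad17 and HA wild type replicate 2 left 0 windows called lower. At an unadjusted p under 0.05 the fit had 493 of 11453 windows, fewer than that threshold passes when no window differs.

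The largest fall on the left lay also 15 kb out, at chromosome 5, 104001 to 105000, with 51% to 61% and a median of 55.5% without Rad17, against 69.6% to 81.2% and a median of 75.6% with it. Its log2 difference was -0.39 ± 0.08 (SE, limma adjusted p = 0.375). Leaving out HA wild type replicate 2 gave it an adjusted p of 0.0349, and the fit then called 4 windows on the left and 3 on the right within 30 kb, of 9 called lower in all. The largest rises were at 2 kb on the left (0.33 ± 0.19, SE) and at 29 kb on the right (0.34 ± 0.17, SE), each with a limma adjusted p of 0.832. The second rests on HA wild type replicate 2, which had 45.9% in that window, and was 0.17 without it.

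Windows in which all 5 extracts lacking Rad17 lay below all 6 with it were also counted, without a model. The count uses the same windows and libraries as the called classes, so it is not independent of them. Such windows were 42 of 11453 over the genome (0.367%), and windows with all 5 above were 25 (0.218%). At 11 to 20 kb they were 4 of 10 windows on the left, at 12, 15, 16 and 17 kb, and 5 of 10 on the right, at 11, 13, 14, 15 and 16 kb. There were 0 of 20 at 1 to 10 kb on both sides together and 0 of 20 at 21 to 30 kb.

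**Figure D3:**
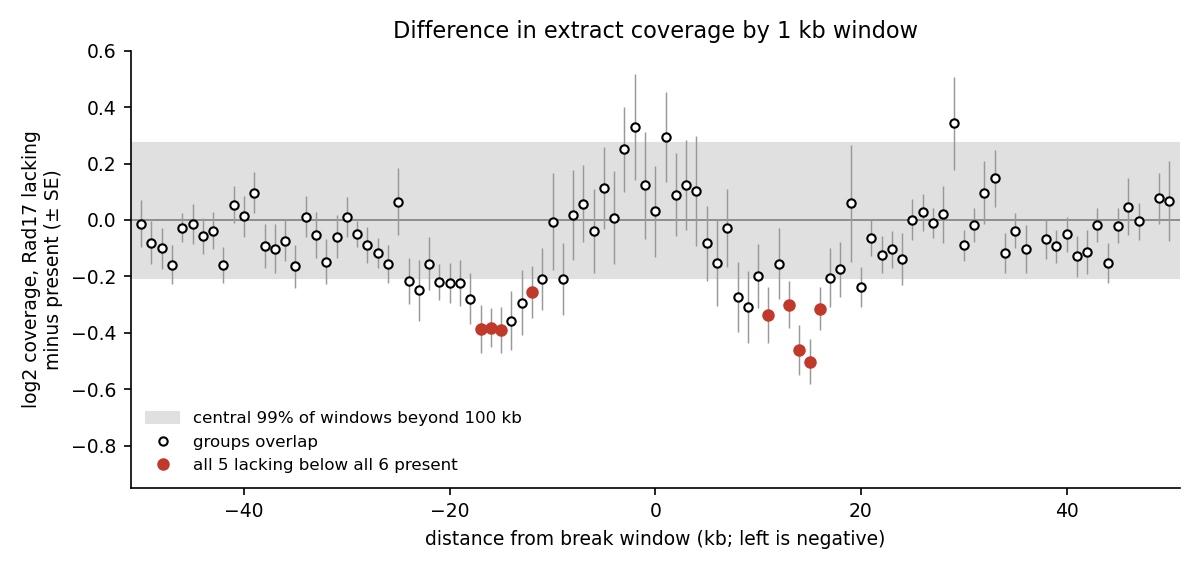
Log2 difference in coverage, Rad17 lacking minus Rad17 present (vertical axis, with SE bars), for each 1 kb window against distance from the break (horizontal axis, kb). Filled points are windows in which all 5 extracts lacking Rad17 lay below all 6 with Rad17, and the grey band holds the central 99% of windows beyond 100 kb of the break. The filled points sit at 11 to 17 kb, and the lowest is -0.50 at 15 kb on the right.

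Averaging over 5 kb lowers the noise of single windows. Of 2322 tiles of 5 kb across the genome, limma called 2 lower (0.0861%) and 0 higher, and both lie beside the break. They were the tile at 11 to 15 kb on the right (log2 difference -0.37 ± 0.05, SE, limma adjusted p = 0.00344) and the tile at 16 to 20 kb on the left (-0.29 ± 0.04, SE, limma adjusted p = 0.00515). Both remained called whichever of the 11 extracts was left out, at -0.39 to -0.35 and -0.31 to -0.27. The tiles were added after seeing the data, and these 2 hold the same windows as the classes at those distances. They are therefore not independent of those classes, for which the exact test passed in 8 of 11 such fits each. With each tile's own spread in place of limma's moderated one, the tile on the right was called (adjusted p = 0.0105) and the tile on the left was not (0.0512). Without HA wild type replicate 2, limma called 6 tiles lower (0.258%) and 2 higher, and 5 of the 6 lay beside the break: 11 to 25 kb on the left and 11 to 20 kb on the right. The tiles beyond 50 kb had a median log2 difference of -0.0016 with an SD of 0.0471 over 2302 tiles. Of the 5 tiles in which all 5 extracts lacking Rad17 lay below all 6 with it, 4 lay within 50 kb of the break, 3 of them the classes named above and the other at 41 to 45 kb on the right, where the highest extract lacking Rad17 and the lowest with it were both at 109%.

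The reach of the loss was greater without Rad17 by about 3 to 4 kb when measured to near-full coverage. The distance at which a running mean of 5 windows first regained 0.8 of the library median was 19, 19, 20, 20 and 20 kb on the left in the extracts lacking Rad17, against 15, 16, 16, 16, 17 and 18 kb in those with Rad17. On the right it was 17, 18, 18, 18 and 20 kb, against 14, 14, 14, 14, 14 and 15 kb. No value of one group reached the other. The differences were 3.27 kb on the left and 4.03 kb on the right, each with an exact p of 0.00433. The combination of this level with the library median was added after seeing the data, and these p-values are not adjusted for that choice. To 0.8 of the uncleavable-strain extracts the differences were 3.33 kb on the left and 3.57 kb on the right, with an adjusted p of 0.00866 for each by the exact test.

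The distance to 0.5 of the uneven uncleavable-strain extracts, the main measure of recovery, did not separate the groups. It was 7.40 ± 1.34 kb without Rad17 and 8 ± 1.26 kb with it on the left, and 10 ± 0 kb and 9.33 ± 0.52 kb on the right (SD, n = 5 and 6; exact test, adjusted p = 0.576 and 0.182). To 0.5 of the library median it was 13.4 kb and 11.8 kb on the left (exact p = 0.0390) and 11.8 kb and 9.33 kb on the right (exact p = 0.00866). The sign of the difference on the left thus changed with what coverage was divided by. It also changed with the level, from -0.6 kb at 0.5 to 3.33 kb at 0.8 of the uncleavable-strain extracts.

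The DNA missing between 1 and 30 kb, the sum over windows of the shortfall from full coverage, was likewise sensitive to what coverage was divided by. Over the uncleavable-strain extracts it was 7.39 ± 1.19 kb without Rad17 and 4.72 ± 1.41 kb with it on the left (SD, n = 5 and 6), a difference of 2.67 kb with an exact p of 0.0130 and 0.0519 after adjustment. On the right it was 3.30 ± 1.12 kb and 1.58 ± 2.56 kb (SD, exact test, adjusted p = 0.242). Windows above the uncleavable-strain level lower this sum, which can fall below 0. On the right it was -1.29 kb in HA wild type replicate 1 and -0.45 kb in HA pds5-AID replicate 1. HA wild type replicate 2 had 5.82 kb, above every extract lacking Rad17 (highest 5.11 kb). With HA wild type replicate 2 left out the differences were 3.08 kb and 2.57 kb, both with an adjusted p of 0.0317 by the exact test, and without HA rad17 pds5-AID replicate 1 the left one was 3.13 kb with 0.0381. Over the library median alone the missing DNA was 12.2 ± 0.83 kb without Rad17 and 9.91 ± 0.58 kb with it on the left, and 9.94 ± 0.71 kb and 7.99 ± 0.95 kb on the right (SD). By that measure the groups did not overlap on either side (exact p = 0.00433 for each).

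More DNA was missing on the left than on the right in all 11 extracts, by 3.58 kb on average over the uncleavable-strain extracts and by 2.08 kb over the library median. All 11 share these windows and that divisor, and the uncleavable-strain extracts themselves had an excess on the left over the library median, 3.52 kb in the HA and 2.91 kb in the Pk strain. How much of the excess belongs to the break therefore cannot be told apart from the windows' own coverage.

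In 4 of the 5 called classes the mean was lower without Rad17 by 0.14 or more on the log2 scale both with and without the pds5-AID allele. At 11 to 15 kb on the right, rad17 pds5-AID extracts had 61.2% and 56.5%, against 76.0% and 71.3% in pds5-AID extracts (log2 difference -0.32). Strains without pds5-AID had means of 56.7% in rad17 (n = 3) and 76.8% in wild type (n = 4), a log2 difference of -0.44. At 16 to 20 kb on the left the means were 74.7% and 90.6% in the pds5-AID pair (-0.28), and 74.3% and 93.6% without pds5-AID (-0.33). The exact p-values, 0.333 for 2 against 2 and 0.0571 for 3 against 4, are the smallest those designs can give.

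At 11 to 15 kb on the left the means were 52.6% and 60.6% in the pds5-AID pair (-0.20), where the extracts overlapped, and 47.6% and 63.5% without the allele (-0.42). At 21 to 25 kb on the left they were 82.3% and 94.8% (-0.21), and 85.3% and 94.4% (-0.14). At 21 to 25 kb on the right, rad17 pds5-AID extracts had 94.6% and 102.6%, against 101.8% and 102.1% in pds5-AID extracts, which overlapped (-0.05), and the means without the allele were 100.3% and 108.7% (-0.12). The distance to 0.8 of the library median was 19.5 and 17 kb on the left and 17.5 and 14.5 kb on the right in the pds5-AID pair, and 19.7 and 16 kb on the left and 18.7 and 14 kb on the right without the allele.

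Next to the break the values of the pds5-AID pair ran the other way. At 1 to 5 kb on the left, rad17 pds5-AID extracts had 21.5% and 21.4% of the median, against 16.8% and 11.2% in pds5-AID extracts (log2 difference 0.64). Without the allele, rad17 extracts had 10.4%, 14.0% and 14.8%, against 12.5%, 13.5%, 14.5% and 14.5% in wild type (-0.09). On the right the means were 27.4% and 19.7% in the pds5-AID pair (0.52), and 20.2% and 22.1% without it (-0.14). The difference between the backgrounds was 0.55 ± 0.20 on the left and 0.53 ± 0.23 on the right in the limma fit over tiles (SE, log2, unadjusted p = 0.0177 and 0.0351). Neither held after adjustment over the 2322 tiles, where no tile was called for this interaction (0%, limma adjusted p = 0.996 for both of these). At 11 to 15 kb the same difference was 0.19 ± 0.14 on the left and 0.11 ± 0.11 on the right (SE). Within either background alone limma called no tile lower (0% in both), and at 11 to 15 kb on the right its adjusted p was 0.999 for the pds5-AID pair and 0.0560 without the allele.

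**Figure D4:**
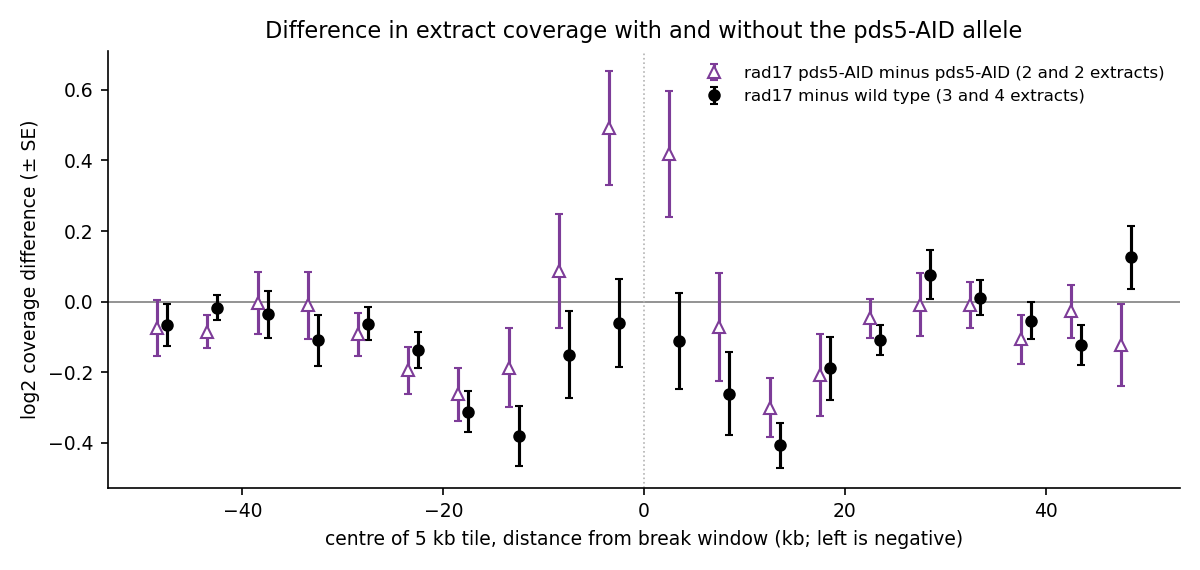
Log2 coverage difference by 5 kb tile (vertical axis, with SE bars from limma) against the tile's distance from the break (horizontal axis, kb). Triangles are rad17 pds5-AID minus pds5-AID extracts (2 and 2) and circles rad17 minus wild-type extracts (3 and 4). Both lie below 0 from 11 to 50 kb on the left, and from 6 to 25 kb and 36 to 45 kb on the right. Within 5 kb of the break they lie 0.55 apart on the left and 0.53 apart on the right, a difference that no tile passed after adjustment.

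Away from the break the median coverage of whole chromosomes was near level between the groups. That of the 15 other chromosomes differed by log2 values of -0.02 to 0.01. None of the 19 control regions passed by the exact test (lowest adjusted p = 0.0823, with 3 at an unadjusted p under 0.05). Since 0.0823 is the lowest adjusted p that a lone region can reach here, this count cannot show that no region differs. One of those 3 is the set of 5 windows whose mean in the uncleavable-strain extracts was over 4 times the median, 4 of them side by side on chromosome 12, 475001 to 479000. The median over these 5 windows was 483% to 506% in the extracts lacking Rad17, against 508% to 924% in those with it, so the groups did not overlap. Its log2 difference of -0.31 had an exact p of 0.00433 and 0.0823 after adjustment.

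In the rest of the genome, limma called 1 window higher (0.00873%) and 1 lower. The window at chromosome 4, 461001 to 462000, had 126%, 137%, 138%, 141% and 152% of the median in extracts lacking Rad17, against 61.5%, 64.2%, 67.8%, 69.1%, 84.4% and 87.2% in those with it (log2 difference 0.90 ± 0.09, SE, limma adjusted p = 0.000109). Its neighbours on either side were not called, with log2 differences of -0.09 and 0.10. The difference was 1.06 in the pds5-AID pair and 0.83 without the allele (limma adjusted p = 0.0226 and 0.0175). Over all 11 extracts, 1 or 2 windows were called higher whichever extract was left out. Within the pds5-AID pair, 0 windows were called higher without any 1 of its 4 extracts or any 1 of the 3 other rad17 extracts, and without the allele 0 were called higher when any 1 of those 3 was left out.

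The window at chromosome 15, 1028001 to 1029000, was lower, with 49.9%, 61.8%, 66.2%, 66.8% and 69.9% in extracts lacking Rad17, against 77.2%, 100%, 104%, 104%, 106% and 109% in those with it (log2 difference -0.63 ± 0.10, SE, limma adjusted p = 0.0372). It held the largest fall on that chromosome. The next window outward had -0.30 ± 0.07 (SE, limma adjusted p = 0.831, and 0.0296 without HA wild type replicate 2). RAD17 itself is on chromosome XV in the R64 gene table, but the build behind the windows is not named, so that table's coordinates were not used. The level of the RAD17 gene, which would check the genotype labels, was therefore not read by position. Of the window calls named above, the fall on chromosome 15 was lost when any 1 extract other than Pk rad17 and HA wild type replicate 2 was left out, and its limma adjusted p was 1.00 within the pds5-AID pair and 0.711 without that allele.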

How the data were processed

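The authors deposited signal (coverage) in 12447 windows of 1 kb on 16 chromosomes for each library, in tables with no column names. Per the submitters' processing notes the tools were Bowtie2, bedtools, SAMtools and MACS2, given without versions or roles, and no source used here names the build. In each extract the smallest value above 0 was 1, no value lay between 0 and 1 although 56 to 90 windows per extract lay from 1 to 2, and 100% of the values above 0 were ratios of whole numbers with a denominator no larger than the window length in bases, within the last digit given. They are therefore unscaled means over stretches with reads, and bases without reads appear to be left out. A stretch with no reads inside a window thus need not lower its value, and low coverage may be overstated.

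Each extract was divided by its median window. A distance class is the mean over its windows, tested on the log2 scale without a pseudocount by a two-sided exact permutation test (462 arrangements) with Benjamini-Hochberg adjustment over 16 classes at a threshold of 0.05. Windows were tested with limma 3.58.1 in R 4.3.3 (trend) on log2 of relative coverage plus 0.05, which understates changes of low windows, over the 11453 windows with 0.25 to 4 times the median in the uncleavable-strain extracts. The backgrounds were tested with 4 genotype means in limma. On simulated data the window test recovered 100 of 100 windows changed 2-fold and 70 of 100 changed 1.3-fold, with 11 false calls among 11453. The simulated noise was independent between windows and many windows were changed at once, so these shares need not hold for the real data. There, a log2 difference of -0.39 at 15 kb on the left was not called (limma adjusted p = 0.375). Python 3.11.15, numpy 2.4.6, pandas 2.3.3 and matplotlib 3.10.9 were used.

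Named windows are the largest rise and fall on each side within 30 kb and, beyond 100 kb, joined called windows. The extracts, classes and windows compared were chosen with earlier results of these data known. The tiles of 5 kb, the library weights and the distance to 0.8 of the library median were added after seeing the data. The HA uncleavable strain has a treatment label for break induction, and its title was followed. Its extract, with that of the Pk uncleavable strain, served to place the break, to filter windows, as the level for missing DNA and recovery distance, and in the regression listed among the alternatives. Alternatives are given in the closing section.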

Additional observations from a re-analysis of the deposited data

Results flagged for a closer look

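Among 39 groups of values checked for a library far from the rest, 3 were picked out, where chance picks about 1 in 20. At 21 to 25 kb on the left, HA rad17 pds5-AID replicate 2 had 78.0% of its library median, below the 84.3% to 86.6% of the other extracts lacking Rad17. At 16 to 20 kb on the right, HA rad17 replicate 2 had 72.5%, against 82.5% to 86.3% in the other extracts lacking Rad17. At 31 to 40 kb on the left, HA wild type replicate 2, the extract with uneven coverage, had 134%, against 103% to 113% in the other extracts with Rad17.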

How the results depend on the processing

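Of the results recomputed under settings other than leaving out 1 extract, 296 values kept their direction and side of the threshold, 20 lost the threshold, 8 gained it, 7 changed sign and 39 counts or values moved, and the cause was not tested except where the number of arrangements sets it. Regression on the uncleavable-strain extracts gave log2 differences of 0.0062 at 31 to 40 kb on the left (a change of sign), -0.24 at 16 to 20 kb on the right (now past the threshold) and -0.065 at 21 to 25 kb on the right (no longer past it). A break window 1 kb further right turned the class at 1 to 5 kb on the right to -0.0025. Class medians gave 0.039 at 6 to 10 kb on the left and 0.0014 at 41 to 50 kb on the right (changes of sign), -0.33 at 6 to 10 kb on the right (past the threshold) and -0.085 at 21 to 25 kb there (not past it).

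For missing DNA, dividing by the library median alone gave 2.30 and 1.94 kb on the left and right, both past the threshold. An outer limit of 50 kb gave 3.34 kb on the left, past the threshold, and 0.59 kb on the right, not past it. With a limit of 20 kb the values were 1.84 and 2.05 kb, neither past it. The recovery distance differed by 1.57 kb on the left and 2.47 kb on the right undivided, by 3.33 and 3.57 kb at a level of 0.8, and by 3.27 and 4.03 kb with both changes, reversing the sign on the left each time.

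The replicate numbers are only shared numbers: deviations of same-numbered extracts correlated at -0.0677 to 0.270 over 6 pairs of groups with 2 numbers. With the replicate block the 5 called classes kept -0.34, -0.29, -0.16, -0.40 and -0.086, in the order named in the report, with adjusted p-values of 0.111 for the first 4 and 0.148, where 0.0278 is the smallest unadjusted p this design gives. Permuting within the pds5-AID and other strains gave -0.34, -0.31, -0.17, -0.40 and -0.091 with adjusted p-values of 0.0508 to 0.0914. HA extracts alone, 4 against 4, gave -0.36, -0.30, -0.15, -0.42 and -0.10, none past the threshold. Limma over tiles called 1 tile with each tile's own spread, against 2, and as reported did not call -0.31 at 11 to 15 kb and -0.16 at 21 to 25 kb on the left, nor -0.090 at 21 to 25 kb on the right.

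Windows called lower numbered 12 after regression on the uncleavable-strain extracts, 9 with library weights, 1 with each window's own spread, and 0 without a filter, with a filter on the 11 extracts, with the replicate block, with a pds5-AID term or in HA extracts alone, against 2 as reported. Within 30 kb on the left these were 6 after regression, 4 with weights and 1 with own spread, against 0, and on the right 5 after regression, 3 with weights and 0 without a filter, with the 11-extract filter, with own spread, with the block, with the pds5-AID term or in HA extracts, against 1. For rad17 over wild type, windows higher were 2 after regression or in HA extracts and 0 without a filter or with own spread, against 1, and windows lower were 4 after regression, of which 1 lay on the left and 2 on the right of the break, and 0 with a pseudocount of 0.2, either filter change, own spread or HA extracts, against 1. In the pds5-AID pair, windows higher were 0 without a filter, with own spread or in HA extracts, against 1, and windows lower were 2 after regression and 1 without a filter, against 0. For the interaction, windows lower were 1 after regression, 1 without a filter and 2 in HA extracts, against 0.

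Leaving out 1 extract at a time, the 5 called classes ran from -0.39 to -0.30, -0.33 to -0.29, -0.19 to -0.14, -0.42 to -0.37 and -0.11 to -0.069. The classes at 6 to 10 and 16 to 20 kb on the right ran from -0.29 to -0.17 and from -0.26 to -0.16, each passing the threshold once. Those at 6 to 10 kb on the left (-0.14 to 0.021) and 26 to 30 kb on the right (-0.0018 to 0.082) changed sign once, without HA rad17 replicate 2 and without HA wild type replicate 2. The difference in missing DNA ran from 2.33 to 3.13 kb on the left and from 1.15 to 2.57 kb on the right. Windows called lower ran from 0 to 9.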
